A study of Mus musculus with 8 samples.

Results

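The comparison described here sets 4 microarrays of mouse small intestine from animals that received a growth factor protein before 8 Gy of carbon-ion irradiation against the 2 microarrays from animals that received saline before the same dose. The 4 protein arrays are 2 labelled FGF1/CPP-C and 2 labelled FGF1, and they were chosen by their titles alone. They were 4 of the 8 arrays in the series, and 6 of the 8 arrays entered the comparison. The other 2 arrays came from unirradiated mice given saline (0 Gy), and served to show where a level lay before irradiation.

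All groups were female BALB/cA Jcl mice aged 8 weeks. FGF1/CPP-C, FGF1 or saline was injected into the peritoneum, carbon ions were delivered at 8 Gy, and the intestine was frozen 4 h later, with 2 arrays in each group. The series gives a pretreatment of 12 h for FGF1/CPP-C and calls the tissue jejunum, while the sample labels say small intestine. No interval is stated for plain FGF1, so the 2 proteins may not have been given equally long before the radiation. Whether the replicates of a group were different mice is not stated, and p-values therefore measure only how far these arrays spread, which may be technical.

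FGF1 is a secreted fibroblast growth factor that binds all the FGF receptors and signals through the ERK kinase cascade, whose activity is usually followed by induction of its own inhibitors such as the Sprouty and DUSP genes. FGF1/CPP-C is a chimera in which FGF1 is fused to a cell-penetrating peptide. In the crypts of the small intestine, radiation activates p53, which induces cell cycle arrest and death genes within hours. Calprotectin, serum amyloid A and interferon-stimulated genes belong to the first defences of the gut wall against microbes and tissue damage.

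Levels are log2 signals relative to the 75th percentile of the same array, so 0 is the signal of a probe at that percentile and each unit is a 2-fold step. Differences are the mean of the 4 protein arrays minus the mean of the 2 8 Gy saline arrays, on that log2 scale, with the standard error of the limma fit. A gene was counted as shared when all 4 protein arrays lay above, or all 4 below, both 8 Gy saline arrays. Signals below -6.95, the usual lower limit of signals well above background, were set to that floor.

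The tissue label held for every array, since the 18 measured markers of absorptive enterocytes had a median level between 5.95 and 6.56 on the 4 protein arrays, against 6.45 and 5.76 on the 2 8 Gy saline arrays. Genes of neighbouring organs varied widely between arrays. The median level of 17 stomach antrum genes was -4.45 and -5.40 on the FGF1/CPP-C arrays and 2.24 and -1.57 on the FGF1 arrays, against -1.70 and 2.77 on the 8 Gy saline arrays. The median of 19 pancreatic acinar genes was -1.40 and -3.78 on the FGF1/CPP-C arrays and -2.68 and -3.75 on the FGF1 arrays, against -3.22 and 2.82 on the 8 Gy saline arrays. The second 8 Gy saline array therefore held the highest levels of both lists among the 6 irradiated arrays. The replicate numbers follow the 2 slides, and each slide held 1 array of each group, so values within each slide are given where they matter.

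**Figure D1:**
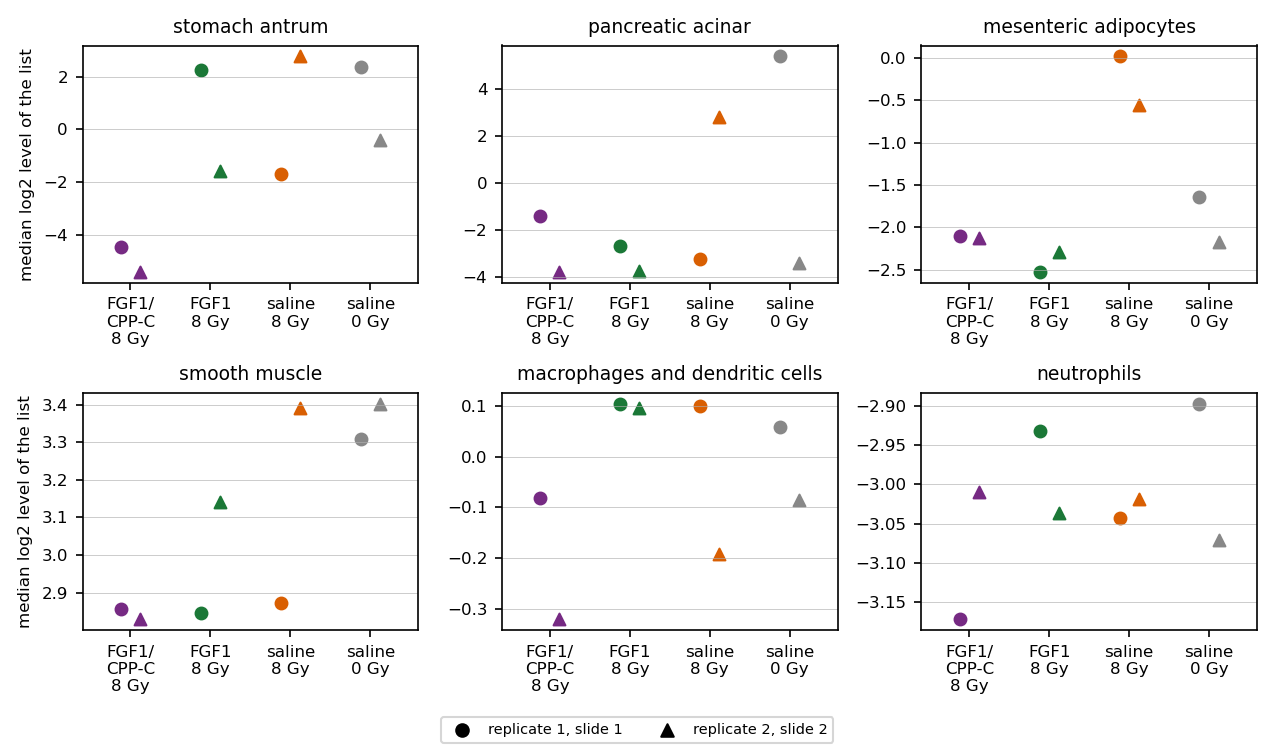
Median log2 level (vertical axis) of 6 marker lists on each of the 8 arrays, by group along the horizontal axis, with circles for replicate 1 and triangles for replicate 2. The second 8 Gy saline array stands high for stomach antrum (2.77) and pancreatic acinar genes (2.82), and both 8 Gy saline arrays (0.02 and -0.56) lie above all other arrays for mesenteric adipocyte genes.

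Of 21602 genes tested, 1251 had all 4 protein arrays above both 8 Gy saline arrays, which is 5.79% of the genes, and 745 had all 4 below, which is 3.45%. Together they were 9.24% of the genes. So 62.7% of the shared genes were above, a split that was 69.2% with median scaling, 41.2% with quantile normalisation, 38.2% with normexp background correction and 19.3% in the authors' processed values. The authors' processed values match the scanner signals at a median ratio of 1 on every array. They were scaled here without a floor and with missing values left out, so they are not an independent set of intensities. Without the first 8 Gy saline array 8777 genes were above and 4651 below, and without the second 2558 and 3937. Among the shared genes, 83 were at least 1.5-fold higher (0.384% of all genes) and 82 at least 1.5-fold lower (0.38%). No gene was higher at a limma adjusted p under 0.05 (0.0%), and 1 was lower (0.00463%), while 687 were higher and 442 lower at an unadjusted p under 0.05, 3.18% and 2.05% of the genes, or 5.23% in either direction. On simulated data of the same size, this fit recovered 59.7% of genes changed 2-fold and 92.5% of those changed 4-fold, with 10 false calls. The simulated noise was independent between genes and arrays and held no differences in tissue content. These shares therefore do not say how many changes of that size were missed on the real arrays.

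The 1 gene past the adjusted threshold was not shared by both proteins. Tff2, a trefoil peptide of the stomach and the duodenal glands, had levels of -6.02 and -6.95 on the FGF1/CPP-C arrays and 8.64 and 8.15 on the FGF1 arrays, against 8.16 and 8.64 on the 8 Gy saline arrays. It was thus near or at the floor on both FGF1/CPP-C arrays and at the saline level on both FGF1 arrays. The probe was not well above background on either FGF1/CPP-C array, and it was saturated on 1 FGF1 and 1 8 Gy saline array, so it was at least 29100-fold lower with FGF1/CPP-C than with FGF1. The pooled fit averages those patterns and its size depends on the floor (limma adjusted p = 0.0055). Gkn3, a gastrokine of the stomach antrum, was the only other gene that differed between the proteins at an adjusted p under 0.05 (0.00926% of genes), with levels of -1.66 and -1.82 with FGF1/CPP-C and 8.17 and 7.20 with FGF1. Gkn3 was also saturated on 1 FGF1 and 1 8 Gy saline array, so its difference is a lower limit. Both genes were lowest on the FGF1/CPP-C arrays, as was the antrum list above. The antrum median also fell from the first to the second FGF1 array, while both genes stayed high on both.

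The shared genes of at least 1.5-fold had, in most cases, a larger difference with the chimera. Among the 83 higher genes, 75 lay further from saline with FGF1/CPP-C and 8 with FGF1, and the median difference was 0.97 with FGF1/CPP-C and 0.59 with FGF1. Among the 82 lower genes, 63 lay further from saline with FGF1/CPP-C and 19 with FGF1, with medians of -1.12 and -0.74. The difference between the proteins had an unadjusted limma p under 0.05 for 21 of the 83 and 22 of the 82 genes, against 9.11% of all genes, and none of them passed after adjustment. Of the 83 higher genes, 53 also lay above both unirradiated arrays, and of the 82 lower genes, 42 also lay below them. Among all shared genes, of any size, 662 of the 1251 higher and 431 of the 745 lower did so.

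**Figure D2:**
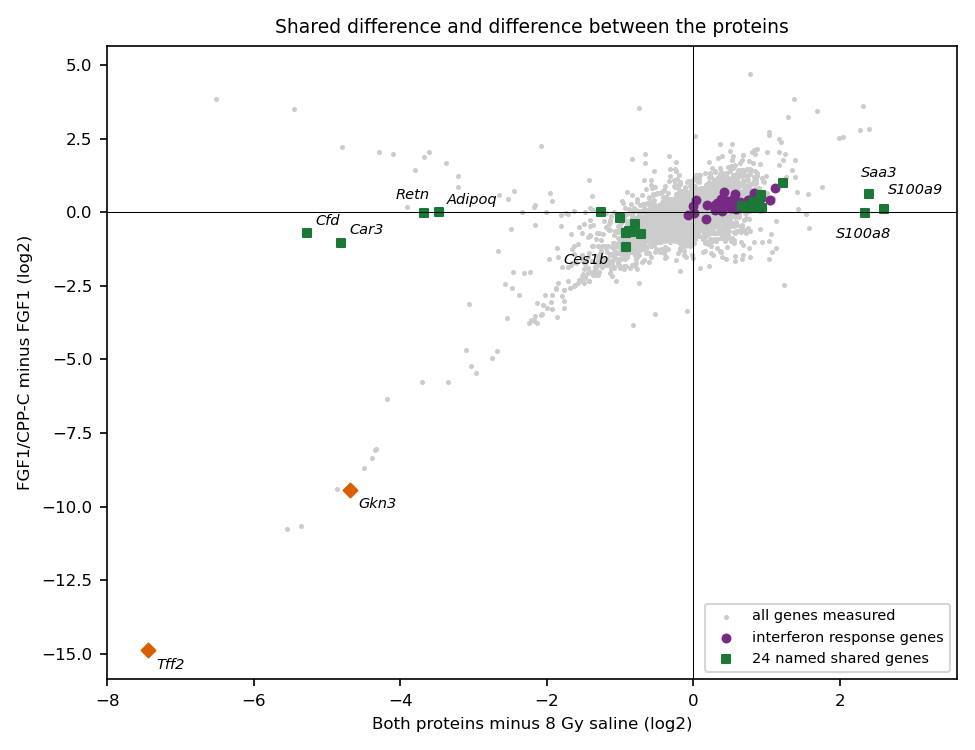
Each point is 1 gene, with the difference of both proteins from 8 Gy saline on the horizontal axis and the difference of FGF1/CPP-C from FGF1 on the vertical axis, both in log2 units. S100a8, S100a9 and Saa3 lie to the right and Cfd, Car3, Retn and Adipoq to the left at small differences between the proteins, while Tff2 and Gkn3 lie far below 0 on the vertical axis, Tff2 at a place set by the floor.

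Calprotectin and serum amyloid A had the largest differences among the 12 higher genes picked by smallest p. The 3 probes that read them are shown as they stand on the array, with positions in the mm9 genome. The S100a8 probe lies at chr3:90473778-90473837 on the plus strand, the S100a9 probe at chr3:90496573-90496632 on the minus strand, and the Saa3 probe at chr7:53970389-53970448 on the minus strand. The longest run of bases that the S100a8 and S100a9 probes share is 6.
S100a8: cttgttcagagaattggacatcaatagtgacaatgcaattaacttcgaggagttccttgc
S100a9: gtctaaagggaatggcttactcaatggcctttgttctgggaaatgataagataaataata
Saa3: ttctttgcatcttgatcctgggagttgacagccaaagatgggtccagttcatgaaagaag

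S100a8 encodes one chain of calprotectin, a metal-binding antimicrobial protein of myeloid cells and stressed epithelium. Its level was -3.67 and -4.31 with FGF1/CPP-C and -4.06 and -3.85 with FGF1, against -6.10 and -6.55 in 8 Gy saline and -5.88 and -6.15 in 0 Gy saline. The 4 protein arrays lay together, more than 1 unit above all 4 saline arrays. The difference was 2.35 ± 0.23 (5.10-fold), with a limma adjusted p of 0.234. The probe was well above background on 1 of the 2 8 Gy saline arrays. S100a8 therefore passed the filter only through the protein arrays, where it was high, and its p rests on that selection. S100a9, the partner chain, had -1.33 and -1.78 with FGF1/CPP-C and -1.88 and -1.47 with FGF1, against -3.76 and -4.68 in 8 Gy saline and -4.22 and -4.53 in 0 Gy saline. Its difference was 2.60 ± 0.29 (6.07-fold, limma adjusted p = 0.315), and again no protein array overlapped a saline array. Within slide 1 the differences of S100a8 and S100a9 were 2.23 and 2.15, and within slide 2 they were 2.47 and 3.05.

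Saa3, a serum amyloid A made locally by epithelium and macrophages in inflammation, followed another course. Its level was 0.68 and -0.58 with FGF1/CPP-C and -0.55 and -0.59 with FGF1, against -2.39 and -2.94 in 8 Gy saline and -5.39 and -6.04 in 0 Gy saline. The 3 steps did not overlap: protein-treated irradiated tissue was highest, irradiated saline tissue intermediate and unirradiated tissue lowest. The difference between the proteins and 8 Gy saline was 2.40 ± 0.39 (5.29-fold, limma adjusted p = 0.672), and 2.46 and 2.35 within slides 1 and 2.

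Among the 15 measured genes of acute phase and calprotectin, 5 were above both 8 Gy saline arrays and 1 was below, against 5.79% and 3.45% of all genes. With a filter for all 6 irradiated arrays, 4 of 12 measured genes were above and none below. The median difference of the 15 genes was 0.37, against 0.03 over all genes, and 0.17 without the 3 arrays high in antrum genes. The others above were Saa1 (0.71 ± 0.32), a second serum amyloid, and Cp (0.37 ± 0.08), the copper-carrying ferroxidase ceruloplasmin, both at a limma adjusted p of at least 0.80. Orm2, an acute phase plasma glycoprotein, was the 1 below. It was not well above background on any protein array, so it was at least 1.78-fold lower (limma adjusted p = 0.80). Orm2 entered the fit only through the 8 Gy saline arrays where it was high, and its p rests on that selection. The main cytokines of the list did not separate: Il1b, the inflammasome cytokine, differed by 0.41 ± 0.13 and Tnf by -0.02 ± 0.28, neither with all 4 protein arrays beyond saline.

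Genes of myeloid cells were measured beside calprotectin because neutrophils store it in bulk. None of 7 measured neutrophil markers lay beyond saline on all 4 protein arrays, against 9.24% of all genes. The median level of the list was -3.17 and -3.01 with FGF1/CPP-C and -2.93 and -3.04 with FGF1, against -3.04 and -3.02 in 8 Gy saline. Ly6g, Cxcr2, Ngp and Mmp8 were not well above background. Among 15 measured macrophage and dendritic cell markers, 4 were above both saline arrays and none below, against 5.79% and 3.45% of all genes. The median difference of the list was 0.32. The 4 above were Adgre1 (0.70 ± 0.13), an adhesion receptor that marks macrophages, the complement chains C1qc (0.46 ± 0.09) and C1qa (0.42 ± 0.09), and Aif1 (0.54 ± 0.17), the cytoskeletal protein IBA1. Itgam, Cd14 and Mrc1, receptors of the same cells, differed by -0.03, -0.22 and -0.34. In whole tissue, more cells of a type and more RNA per cell cannot be told apart. The median difference of the macrophage list was 0.10 within slide 1, 0.53 within slide 2, 0.53 without the first 8 Gy saline array and 0.05 without the second. Its median level overlapped between groups, at -0.08 and -0.32 with FGF1/CPP-C and 0.11 and 0.10 with FGF1, against 0.10 and -0.19 in 8 Gy saline.

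Fpr2, a formyl peptide receptor that draws phagocytes to bacterial peptides, was also among the 12 higher genes. Its level was -3.78 and -3.52 with FGF1/CPP-C and -3.99 and -4.07 with FGF1, against -4.55 and -4.92 in 8 Gy saline and -4.76 and -4.72 in 0 Gy saline. All 4 protein arrays lay above all 4 saline arrays, with a difference of 0.89 ± 0.13 (limma adjusted p = 0.618). Its neighbour in function Fpr1, named after its values were seen, differed by 1.05 ± 0.24 (limma adjusted p = 0.812). Cd72, a coreceptor on B cells and macrophages, differed by 0.93 ± 0.12 from 8 Gy saline, with levels of -0.13 and 0.13 for FGF1/CPP-C and -0.52 and -0.63 for FGF1, against -1.09 and -1.34 in 8 Gy saline and -0.53 and -0.45 in 0 Gy saline. The 0 Gy arrays lay beside the FGF1 arrays.

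Itih3 and Slc26a4 had the smallest standard errors of the difference among the 12 higher genes. Itih3 encodes a heavy chain that links to hyaluronan in the extracellular matrix. It had levels of -1.95 and -1.98 with FGF1/CPP-C and -2.21 and -2.25 with FGF1, against -2.86 and -3.06 in 8 Gy saline and -3.57 and -3.46 in 0 Gy saline. The 4 groups stood in that order without overlap, and the difference was 0.86 ± 0.09 (limma adjusted p = 0.315). Slc26a4, the anion exchanger pendrin, had levels of -3.00 and -3.17 with FGF1/CPP-C and -3.47 and -3.37 with FGF1, against -3.97 and -4.15 in 8 Gy saline and -4.60 and -4.72 in 0 Gy saline. Its groups stood in the same order, with a difference of 0.81 ± 0.10 (limma adjusted p = 0.378).

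Of the remaining higher genes, Adad2, a germ cell RNA-binding protein of the adenosine deaminase family, differed by 1.22 ± 0.22, more with FGF1/CPP-C (1.72) than with FGF1 (0.72). Eif2s3x and Eif2s3y, the X-linked and Y-linked genes of a translation initiation factor subunit, differed by 0.81 ± 0.14 and 0.94 ± 0.17. The longest run of bases that their 2 probes share is 5. The mice were female, and the deposited files do not show which transcript the Eif2s3y probe caught, so its value is uncertain. For both genes, the 0 Gy arrays (0.66 and 0.60 for Eif2s3x) lay beside the protein arrays, and the second 8 Gy saline array was lowest at -0.27.

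**Figure D3:**
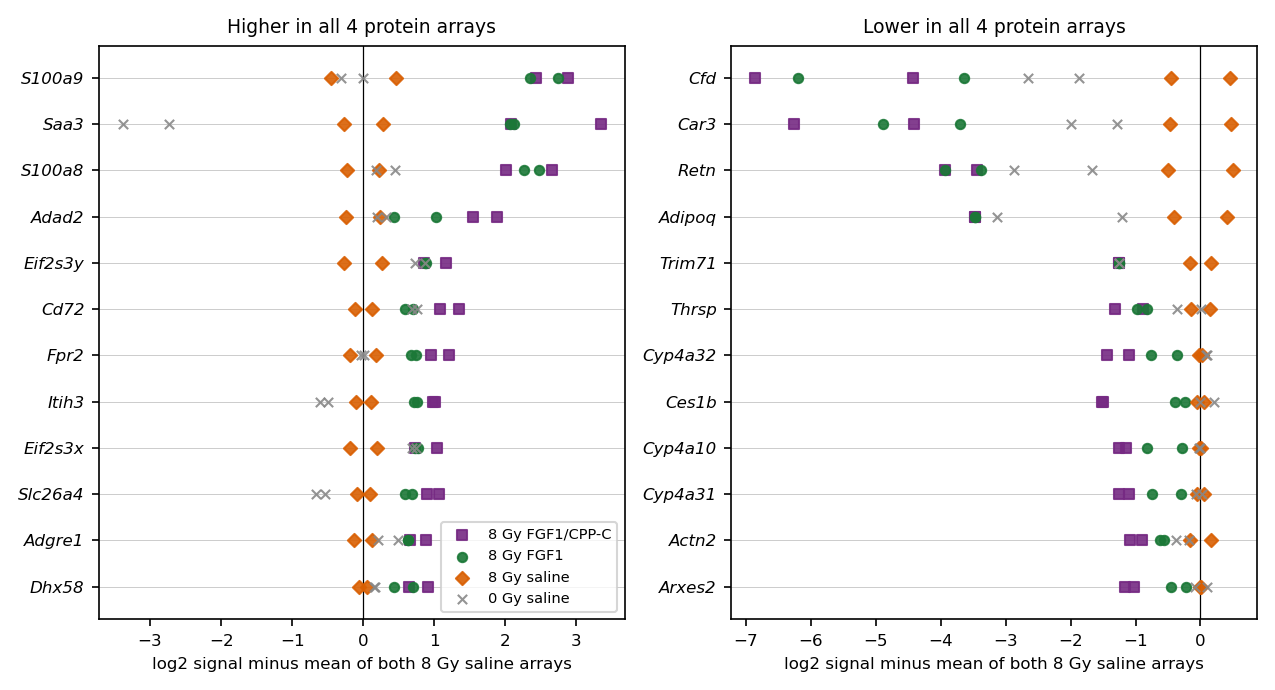
Level of 24 shared genes on each array, as log2 signal minus the mean of both 8 Gy saline arrays (horizontal axis), with 1 row per gene and 1 symbol per array. The left panel shows 12 genes higher on all 4 protein arrays and the right panel 12 genes lower on all 4, and no protein array overlaps an 8 Gy saline array in any row.

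Interferon-stimulated genes were the list with the most shared members. Of 38 measured genes, 24 lay above both 8 Gy saline arrays on all 4 protein arrays and none below, against 5.79% and 3.45% of all genes. The median difference was 0.53, against 0.03 over all genes. In each single protein the median of the list was 0.66 with FGF1/CPP-C and 0.38 with FGF1, both against the same 2 saline arrays. The differences of 37 genes were positive and 29 had an unadjusted limma p under 0.05, but none passed after adjustment over all genes. The median level of the list was 0.69 and 0.28 with FGF1/CPP-C and 0.14 and 0.36 with FGF1, against -0.35 and -0.53 in 8 Gy saline and -0.12 and -0.34 in 0 Gy saline. All 4 protein arrays stood above all 4 saline arrays in that summary, and 17 of the 38 genes did so singly, against 3.06% of all genes. The median difference was 0.42 within slide 1 and 0.68 within slide 2. Parp14 had no value on the first 8 Gy saline array, so it was fitted without it and not counted as shared.

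Most of these genes are switched on by the factor ISGF3, which binds the interferon-stimulated response element (ISRE). Promoters of mouse genes from RefSeq (GRCm38.p6, 250 bases before to 50 after the start) were searched on both strands for the ISRE core, taken as GAAA followed after any 2 bases by another GAAA. Of the 38 genes 25 had a promoter in the table, and 16 of them held the core, which is 64.0%, against 3.99% of the promoters of all 27025 genes. Of the 24 shared genes, 17 had a promoter and 10 held the core. Among all shared genes with a promoter, 6.94% of 836 higher genes and 3.54% of 424 lower genes held it. The promoters of 3 shared genes that differ in how many cores they hold are shown in the direction of transcription, with every match in capitals. Isg15 lies at chr4:156200769-156201068 on the minus strand and has 3 overlapping matches, Ifit1 at chr19:34640639-34640938 on the plus strand with 2, and Oas3 at chr5:120777610-120777909 on the minus strand with 1. A match describes these letters only.
Isg15: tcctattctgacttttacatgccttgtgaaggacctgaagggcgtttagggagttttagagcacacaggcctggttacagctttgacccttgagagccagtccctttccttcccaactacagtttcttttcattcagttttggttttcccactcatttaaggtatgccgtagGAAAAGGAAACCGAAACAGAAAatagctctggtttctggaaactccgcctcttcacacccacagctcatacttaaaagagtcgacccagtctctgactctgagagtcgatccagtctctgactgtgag
Ifit1: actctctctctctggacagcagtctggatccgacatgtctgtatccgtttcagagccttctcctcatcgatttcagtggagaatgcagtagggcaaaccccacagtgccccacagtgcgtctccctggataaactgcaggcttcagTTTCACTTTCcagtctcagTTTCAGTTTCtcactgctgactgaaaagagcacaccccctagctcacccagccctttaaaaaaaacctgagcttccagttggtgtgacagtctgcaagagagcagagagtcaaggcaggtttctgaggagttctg
Oas3: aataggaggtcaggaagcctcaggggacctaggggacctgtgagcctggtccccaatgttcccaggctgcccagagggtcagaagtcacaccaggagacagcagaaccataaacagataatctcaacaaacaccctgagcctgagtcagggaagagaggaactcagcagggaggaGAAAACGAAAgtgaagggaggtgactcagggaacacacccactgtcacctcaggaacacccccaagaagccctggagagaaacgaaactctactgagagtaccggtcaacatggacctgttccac

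Oas3, an antiviral enzyme that makes the RNase L activator, had the largest difference of the list. Its level was -0.94 and -1.70 with FGF1/CPP-C and -2.33 and -1.94 with FGF1, against -2.89 and -2.81 in 8 Gy saline and -2.69 and -3.04 in 0 Gy saline. All protein arrays lay above all saline arrays, and the FGF1/CPP-C arrays lay above the FGF1 arrays. The difference was 1.12 ± 0.24 (limma adjusted p = 0.80), and the proteins differed by 0.81 ± 0.28 (limma adjusted p = 0.48). Isg15, a ubiquitin-like modifier, had 4.78 and 4.23 with FGF1/CPP-C and 3.98 and 4.19 with FGF1, against 3.66 and 3.34 in 8 Gy saline and 3.73 and 3.52 in 0 Gy saline. It differed by 0.80 ± 0.19 (limma adjusted p = 0.812), again without overlap with any saline array.

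Dhx58, the LGP2 helicase of the viral RNA sensor family, had -0.77 and -1.03 with FGF1/CPP-C and -1.25 and -0.97 with FGF1, against -1.62 and -1.74 in 8 Gy saline and -1.51 and -1.52 in 0 Gy saline. It had the smallest p of the list, with a difference of 0.67 ± 0.12 (limma adjusted p = 0.693). Oasl2, an OAS-like protein, differed by 0.89 ± 0.18, and Ifi44, an interferon-induced cytoplasmic protein, by 0.67 ± 0.13, both at a limma adjusted p of 0.772. Ifit1, whose product binds foreign RNA caps and whose promoter is shown above, differed by 0.75 ± 0.29.

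Some interferon targets overlapped saline. Cxcl10 and Cxcl9, chemokines that draw T cells and respond chiefly to interferon gamma, differed by 0.04 ± 0.15 and 0.42 ± 0.36, and both overlapped saline. GTPases induced by the same cytokine were mixed. Iigp1 and Tgtp1 differed by 0.01 ± 0.21 and 0.00 ± 0.17, while Igtp and Gbp3 differed by 0.83 ± 0.23 and 0.64 ± 0.20 and were shared. These 6 genes are named after their values were seen, to show how far members differed.

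**Figure D4:**
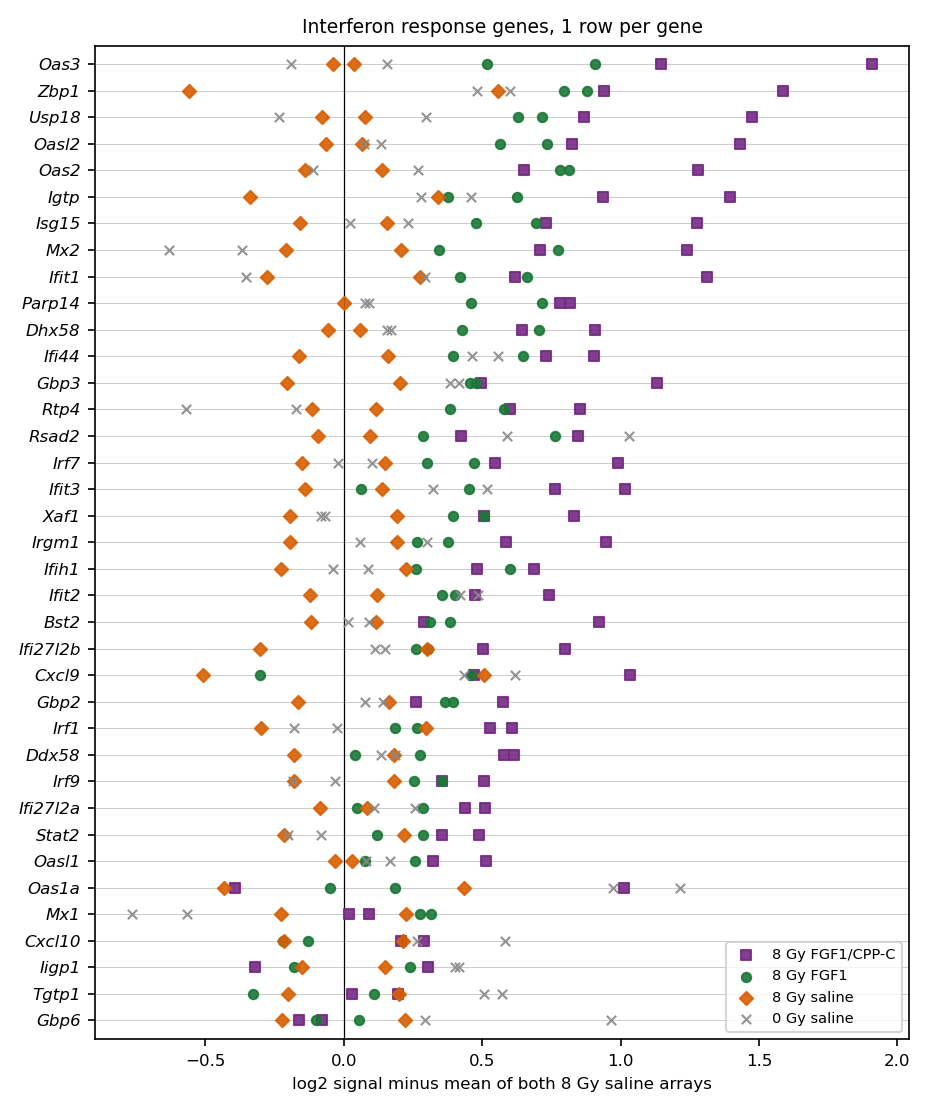
Each row is 1 of 37 of the 38 measured interferon response genes, ordered by difference, and each symbol 1 array, as log2 signal minus the mean of both 8 Gy saline arrays (horizontal axis). In 23 rows all purple and green symbols lie to the right of both orange ones, Parp14 has 1 orange symbol because its spot on the first 8 Gy saline array was an outlier, and the lowest rows, such as Gbp6, Tgtp1 and Iigp1, show mixed symbols.

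Antigen presentation genes had positive differences. All 12 measured genes of MHC class I presentation had positive differences, with a median of 0.38, and 1 of 12 was shared, against 5.79% above among all genes. That gene was Tapbp, the peptide-loading chaperone tapasin. Tap1, the peptide transporter, was -1.14 and -1.05 with FGF1/CPP-C and -1.57 and -1.38 with FGF1, against -1.53 and -1.80 in 8 Gy saline, so 1 FGF1 array overlapped saline. All 10 genes of MHC class II presentation had positive differences with a median of 0.41, and none was shared. Their median was 0.64 with FGF1/CPP-C and 0.09 with FGF1, and FGF1 lay nearer saline. Within slide 1 the class I and class II medians were 0.14 and 0.16, and within slide 2 they were 0.61 and 0.64.

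T cell and B cell markers had mostly positive differences. Of 17 measured T cell markers 16 were positive, with a median of 0.36 that was 0.07 without the second 8 Gy saline array. Among them 1 was above saline on all 4 protein arrays, near the 5.79% of all genes. It was Cd8b1 (0.58 ± 0.17), a chain of the CD8 coreceptor. Its levels of -5.20 and -5.13 with FGF1/CPP-C and -5.45 and -5.69 with FGF1, against -5.79 and -6.10 in 8 Gy saline, stayed below the 0 Gy levels of -4.64 and -5.09. B cell markers had a median level of -2.94 and -0.50 on the FGF1/CPP-C arrays, -3.59 and -3.56 on the FGF1 arrays and -3.10 and -3.26 on the 8 Gy saline arrays, so the second FGF1/CPP-C array stood apart. Madcam1, the addressin of gut lymphoid vessels, followed the same arrays, at -0.60 and 0.98 with FGF1/CPP-C and -1.10 and -0.92 with FGF1, against -1.46 and -1.89 in 8 Gy saline. The part of lymphoid tissue in the difference of Madcam1 (1.26 ± 0.42) and of Spib (0.84 ± 0.33), a B cell and antigen-sampling cell factor, was not tested.

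Paneth cell and Reg genes had 4 shared members of 13 measured, all higher, against 5.79% of all genes. The list's median of 0.40 was 0.68 without the first 8 Gy saline array, 0.16 without the second and -0.07 without the 3 arrays high in antrum genes. They were the angiogenin Ang4 (0.59 ± 0.18), the defensin Defa29 (0.62 ± 0.22), the matrilysin Mmp7 (0.37 ± 0.15) that activates defensins, and the lectin Itln1 (0.40 ± 0.16). Mmp7 showed the common form, with 0.69 and 0.89 for FGF1/CPP-C and 0.29 and 0.36 for FGF1, against 0.17 and 0.21 in 8 Gy saline and 0.24 and 0.71 in 0 Gy saline. The FGF1 arrays were just above 8 Gy saline, and 0 Gy saline overlapped the proteins. None of the 4 lay above all saline arrays once 0 Gy was included. Defensin transcripts are near-identical copies, so the Defa29 probe may read several of them.

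The largest shared differences below saline were in fat cell genes. Of 15 measured adipocyte genes, 6 lay below both 8 Gy saline arrays on all 4 protein arrays, against 3.45% of all genes, and 1 above. Of the 6, Adipoq, Retn and Plin1 were well above background on no protein array and entered the fit only through the saline arrays where they were high. By its levels, Cfd was well above background on 1 array of each protein, so it too passed the filter only through the saline arrays. With a filter for all 6 irradiated arrays, 1 of 10 genes was below and 1 above. In the authors' processed values, used without a floor and with missing values left out, 1 of 12 was below and 1 above. Cfd, the fat-derived complement factor adipsin, was -6.95 and -4.52 with FGF1/CPP-C and -6.29 and -3.75 with FGF1, against 0.36 and -0.56 in 8 Gy saline and -1.97 and -2.75 in 0 Gy saline. The protein arrays stood lowest, the unirradiated arrays between, and 8 Gy saline highest. The difference was -5.28 ± 0.93 (limma adjusted p = 0.693), with 2 of the 4 protein arrays well above background. Its size and p rest on the selection through the saline arrays. Car3, a carbonic anhydrase abundant in fat, was -6.61 and -4.77 with FGF1/CPP-C and -5.25 and -4.05 with FGF1, against 0.12 and -0.83 in 8 Gy saline and -1.64 and -2.34 in 0 Gy saline. It had the same order and a difference of -4.81 ± 0.62 (limma adjusted p = 0.378), with 3 of the 4 protein arrays well above background.

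The fat hormones were below the measured range on the protein arrays. Adipoq, which encodes adiponectin, was at the floor of -6.95 on all 4 protein arrays, against -3.07 and -3.89 in 8 Gy saline and -4.69 and -6.62 in 0 Gy saline. It was at least 10.9-fold lower than in 8 Gy saline (limma adjusted p = 0.618). That p rests on its selection through the saline arrays, as for Retn, Plin1 and Cfd. Retn, which encodes resistin, was not well above background on any protein array, against -2.52 and -3.52 in 8 Gy saline and -4.69 and -5.90 in 0 Gy saline, and was at least 12.7-fold lower (limma adjusted p = 0.367). These bounds set the dim side at the higher of its own signal and the lowest signal well above background on each array. Plin1, the lipid droplet protein perilipin, named after its values were seen, was at least 2.66-fold lower, and Thrsp, a lipogenic nuclear protein, was 2.00-fold lower (limma adjusted p = 0.693). All 6 were also below both unirradiated arrays, as were 431 of the 745 genes below both 8 Gy saline arrays.

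The rest of the adipocyte list did not separate from saline in that direction. Fabp4, a fatty acid carrier shared with endothelium and macrophages, differed by -0.15 ± 0.15, Lep, the hormone leptin, by 0.21 ± 0.42, Pparg, the fat cell regulator, by -0.13 ± 0.16, and Lipe, hormone-sensitive lipase, by 0.18 ± 0.16. The list's median difference was -0.15, but -0.36 without the first 8 Gy saline array and -0.50 without the 3 arrays high in antrum genes, and -0.06 within slide 1 against -0.50 within slide 2. Its median level was -2.10 and -2.13 with FGF1/CPP-C and -2.53 and -2.29 with FGF1, against 0.02 and -0.56 in 8 Gy saline and -1.64 and -2.17 in 0 Gy saline. So 8 Gy saline stood above the unirradiated arrays as well as above the protein arrays. Retnla and Cyp2e1, named after their values were seen, were also below 8 Gy saline on all 4 protein arrays. Retnla, a resistin-like molecule, was at the floor on all 4, against -5.53 and -3.69 in 8 Gy saline and -3.75 and -6.23 in 0 Gy saline, so the saline groups overlapped. Retnla entered the fit only through the 8 Gy saline arrays. Cyp2e1, an alcohol-metabolising cytochrome P450, was -4.55 and -5.99 with FGF1/CPP-C and -4.88 and -5.78 with FGF1, against -1.26 and -2.41 in 8 Gy saline and -3.18 and -4.96 in 0 Gy saline. It was well above background on 2 of the 4 protein arrays, and 1 unirradiated array lay among the protein arrays. By its levels, these 2 were 1 array of each protein, so Cyp2e1 too passed the filter only through the 8 Gy saline arrays. How much fat tissue each sample held was not tested.

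Trim71, an RNA-binding ubiquitin ligase of embryonic cells, had the smallest p among the 12 lower genes but was barely measured, and it too entered the fit only through the saline arrays. It was at the floor on all 4 protein arrays and on both 0 Gy arrays, against -5.86 and -5.54 in 8 Gy saline, at least 2.33-fold lower (limma adjusted p = 0.148).

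Several of the other lower genes picked by smallest p stood further from saline with the chimera. Ces1b, a carboxylesterase, was -5.54 and -5.52 with FGF1/CPP-C and -4.41 and -4.26 with FGF1, against -4.08 and -3.96 in 8 Gy saline and -4.03 and -3.81 in 0 Gy saline. The FGF1 arrays lay just below saline and the FGF1/CPP-C arrays more than 1 unit below. The difference was -0.91 ± 0.10 (limma adjusted p = 0.315), and the proteins differed by -1.20 ± 0.12 (limma adjusted p = 0.0856). Arxes2, an adipocyte signal peptidase relative, had the same form, with a difference of -0.72 ± 0.11 and -0.75 ± 0.12 between the proteins.

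Cyp4a10, Cyp4a31 and Cyp4a32 encode omega-hydroxylases of fatty acids, a family induced by the receptor PPAR alpha. Cyp4a32 was -2.65 and -2.32 with FGF1/CPP-C and -1.58 and -1.97 with FGF1, against -1.19 and -1.23 in 8 Gy saline and -1.12 and -1.11 in 0 Gy saline. The difference was -0.92 ± 0.15 (limma adjusted p = 0.672), and all protein arrays lay below all saline arrays. Cyp4a10 and Cyp4a31 differed by -0.88 ± 0.16 and -0.85 ± 0.14, also below every saline array. Those 2 probes share a run of 34 bases, in capitals here, so each may read both transcripts and they are not separate evidence. Cyp4a14, another gene of the family named after its values were seen, differed by -0.16 ± 0.42 and overlapped saline, with 1 of 4 protein arrays well above background.
Cyp4a10: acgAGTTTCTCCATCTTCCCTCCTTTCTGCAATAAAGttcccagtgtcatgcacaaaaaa
Cyp4a31: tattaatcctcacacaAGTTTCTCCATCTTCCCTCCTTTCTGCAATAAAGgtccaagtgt

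The other genes of fatty acid oxidation were mostly near saline. Of 21 measured, 2 were below saline on all 4 protein arrays (Cyp4a10 and Pdk4, the kinase that turns off pyruvate oxidation) and none above, against 3.45% and 5.79% of all genes. The median difference of the 21 was -0.00. The PPAR response element, taken as AGGTCA followed after 1 base by another AGGTCA on either strand, was in the promoter of none of the 15 of these genes with a promoter in the table, and in 0.0481% of the promoters of all genes. At that rarity, 13 of 27025 promoters, a search of 15 cannot tell whether these genes are PPAR targets. Of 14 measured targets of NRF2, the regulator of antioxidant and conjugating enzymes, 3 were below and none above, against 3.45% and 5.79% of all genes. The glutathione transferase Gsta3 was -0.19 and 0.47 with FGF1/CPP-C and 1.32 and 0.84 with FGF1, against 1.73 and 2.02 in 8 Gy saline and 1.61 and 1.76 in 0 Gy saline, a difference of -1.26 ± 0.23 (limma adjusted p = 0.693). Its relative Gsta4 differed by -0.79 ± 0.16 and the quinone reductase Nqo1 by -0.44 ± 0.13. The list's median difference was -0.09, but 0.06 without the first 8 Gy saline array, and -0.25 within slide 1 against 0.07 within slide 2. Cyp1a1, a target of the aryl hydrocarbon receptor, was -3.11 and -3.50 with FGF1/CPP-C and -2.92 and -2.74 with FGF1, against -2.68 and -2.36 in 8 Gy saline and -0.31 and -0.07 in 0 Gy saline. Its gap to 0 Gy saline was larger than its gap to 8 Gy saline (-0.55 ± 0.16).

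Smooth muscle genes had negative differences whose size varied with the second 8 Gy saline array. All 13 measured genes had negative differences, with a median of -0.38, and 6 were below saline on all 4 protein arrays, against 3.45% of all genes. With median scaling 3 of the 13 were below. Myh11, the smooth muscle myosin heavy chain, was 1.14 and 0.93 with FGF1/CPP-C and 1.12 and 1.20 with FGF1, against 1.32 and 1.70 in 8 Gy saline and 1.56 and 1.48 in 0 Gy saline. The difference was -0.41 ± 0.13 (limma adjusted p = 0.812). The same 13 genes had a median of -0.15 within slide 1, -0.58 within slide 2, -0.59 without the first 8 Gy saline array and -0.15 without the second. Actg2 (-0.38 ± 0.10), Tpm2 (-0.46 ± 0.14) and Myl9 (-0.40 ± 0.14), contractile proteins, were below every saline array including 0 Gy. Actn2, a sarcomere actinin of striated muscle that was among the 12 lower genes, differed by -0.79 ± 0.13.

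Collagen and fibroblast genes had 3 of 18 below and none above, against 3.45% and 5.79% of all genes. Their median was -0.27, which was 0.03 within slide 1 and -0.00 without the second 8 Gy saline array. Ccn2 and Ccn1, matricellular targets of the mechanosensor YAP that are not on that list, were below saline by -0.57 ± 0.14 and -0.26 ± 0.09. The list of regeneration and fetal-like genes to which they belong had a median of -0.59, which was 0.20 within slide 1 and -1.47 within slide 2. The medians of the antrum (-2.58) and acinar (-2.53) lists also had opposite signs between the slides, at 0.39 and 0.57 within slide 1. No gene of either was shared.

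**Figure D5:**
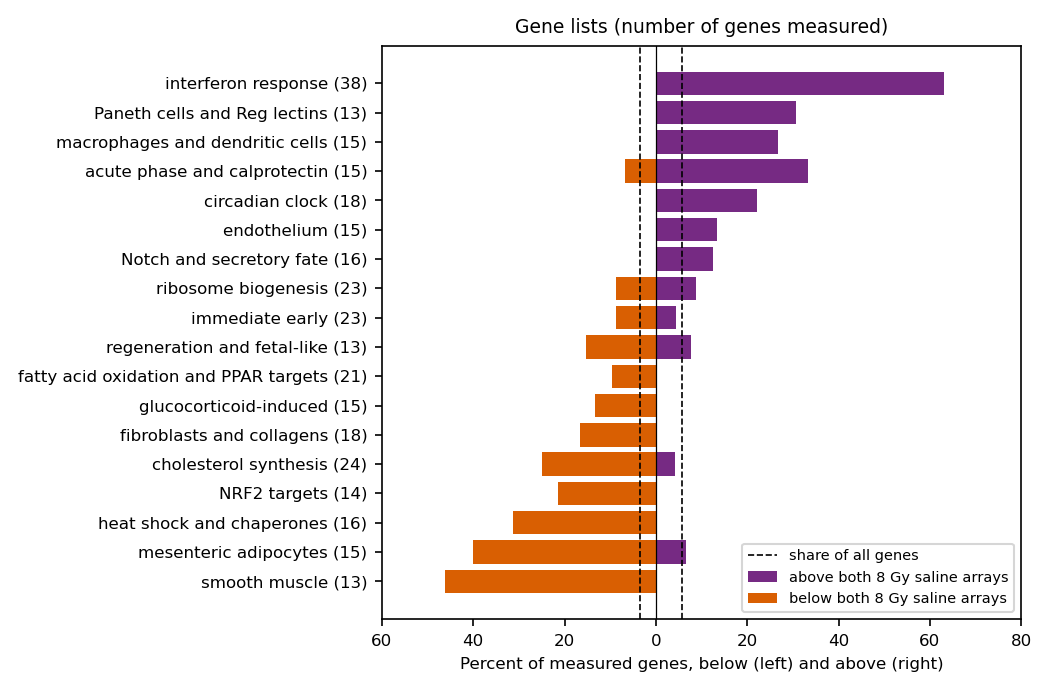
Bars give the percent of each list's measured genes with all 4 protein arrays above (right) or below (left) both 8 Gy saline arrays, for lists of at least 10 measured genes with at least 2 such genes in 1 direction. Dashed lines mark the shares over all genes, 5.79% above and 3.45% below, and the interferon list reaches furthest to the right with 24 of 38 genes.

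Genes of FGF signalling were examined because the injected proteins act on FGF receptors. The tissue was frozen 4 h after irradiation, and FGF1/CPP-C was given 12 h before it. No interval is stated for FGF1. A response that had passed by the time of freezing would not be seen. Of 18 measured genes of ERK feedback, none was above saline on all 4 protein arrays and 1 was below, against 5.79% and 3.45% of all genes. Their median difference was -0.04. Dusp6, the phosphatase that turns off ERK, was 3.44 and 2.96 with FGF1/CPP-C and 3.45 and 3.68 with FGF1, against 3.56 and 2.89 in 8 Gy saline, so the groups overlapped throughout. Spry1 and Spry2, receptor signalling inhibitors, differed by 0.00 ± 0.09 and -0.00 ± 0.13, and the ETS factors Etv4 and Etv5 by 0.01 ± 0.09 and -0.35 ± 0.27. The 1 shared gene, Dusp4, another ERK phosphatase, was lower by a difference of -0.36 ± 0.10. The receptors Fgfr1, Fgfr2, Fgfr3 and Fgfr4 differed by -0.18 ± 0.13, -0.03 ± 0.08, -0.00 ± 0.13 and 0.02 ± 0.13. The mouse gene Fgf1 differed by 0.12 ± 0.11.

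Targets of p53 were examined as the direct readout of irradiation. Of 33 measured targets 1 was above both 8 Gy saline arrays on all 4 protein arrays and none below, against 5.79% and 3.45% of all genes. That 1 was the cell cycle inhibitor Cdkn1a, with 3.94 and 3.71 for FGF1/CPP-C and 3.81 and 3.82 for FGF1, against 3.68 and 3.67 in 8 Gy saline and 2.70 and 2.91 in 0 Gy saline. Its difference was 0.14 ± 0.10, and the 0 Gy arrays lay far below all 6 irradiated arrays. The median difference over the 33 targets was 0.03. It was 0.11 within slide 1 and -0.02 within slide 2. Without the first 8 Gy saline array it was -0.10, and without the second 0.10, so the 2 saline arrays gave opposite signs. The death genes Bax and Bbc3 differed by 0.01 ± 0.10 and 0.09 ± 0.20, the p53 antagonist Mdm2 by 0.12 ± 0.12 and the stress cytokine Gdf15 by 0.27 ± 0.26. For Gdf15 the protein arrays (2.34, 2.61, 1.90 and 2.43) overlapped 8 Gy saline (1.68 and 2.42), and 0 Gy saline stood at -3.41 and -3.66.

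None of 25 measured mitosis genes and none of 30 measured replication genes was shared, against 9.24% of all genes in either direction. Their median differences were 0.04 and 0.07. Between the proteins, 18 of the 25 mitosis genes differed at an unadjusted limma p under 0.05, all higher with FGF1/CPP-C, against 9.11% of all genes, and none after adjustment. Nek2, a centrosome kinase, was -3.13 and -3.16 with FGF1/CPP-C and -3.52 and -3.68 with FGF1, against -3.53 and -3.48 in 8 Gy saline and -2.18 and -2.27 in 0 Gy saline. Mki67, the proliferation marker, was 1.97 and 2.16 with FGF1/CPP-C and 1.68 and 1.67 with FGF1, against 1.87 and 1.77 in 8 Gy saline and 2.50 and 2.70 in 0 Gy saline. FGF1/CPP-C was above and FGF1 below or at 8 Gy saline, and all 6 irradiated arrays were below 0 Gy saline.

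Crypt stem cell genes had 1 shared member of 16, above saline, against 5.79% of all genes. It was Cdca7 (0.25 ± 0.09), a target of MYC. Lgr5, the receptor that marks crypt base stem cells, was -2.67 and -2.71 with FGF1/CPP-C and -3.58 and -3.01 with FGF1, against -3.56 and -3.66 in 8 Gy saline and -3.24 and -3.07 in 0 Gy saline. It missed being shared because 1 FGF1 array lay beside saline, and its difference was 0.62 ± 0.17 (limma adjusted p = 0.812). Olfm4 and Ascl2, other stem cell genes, differed by -0.60 ± 0.35 and -0.61 ± 0.52, with opposite signs on the 2 slides.

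Several smaller groups had shared members at small size. Circadian clock genes had 4 of 18 above and none below, against 5.79% and 3.45% of all genes, with a median of 0.13 that was 0.23 without the first 8 Gy saline array and 0.08 without the second. Among them were the activators Arntl (0.24 ± 0.10) and Npas2 (0.32 ± 0.12) and the repressor Bhlhe40 (0.27 ± 0.18). Cholesterol synthesis genes had 6 of 24 below and 1 above, against the same shares, with a median of -0.04 that was 0.04 without the first 8 Gy saline array and -0.15 without the second. Fdps, Fdft1, Sqle and Tm7sf2, enzymes of that pathway, differed by -0.15 to -0.26. Heat shock genes had 5 of 16 below and none above, against 3.45% and 5.79% of all genes, with a median of -0.01. Hspa1a, the inducible HSP70, was -4.12 and -4.32 with FGF1/CPP-C and -3.86 and -3.79 with FGF1, against -3.70 and -3.03 in 8 Gy saline and -3.01 and -1.75 in 0 Gy saline, with a difference of -0.66 ± 0.37 (limma adjusted p = 0.812). Apoa1, a chylomicron and HDL apolipoprotein, was the 1 shared gene of 18 enterocyte markers, at 0.43 ± 0.14, against 5.79% above among all genes. The desaturase Scd1 was lower by a difference of -1.48 ± 0.57.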

How the data were processed

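RNA of the 8 samples was hybridised to 1-colour Agilent arrays with probes placed on mm9, per the file headers. The deposited scanner intensity was background-subtracted by the authors with Feature Extraction 9.5.3.1, per the file headers. Control spots (1377 of each array) and outlier spots (152 to 333 per array) were left out. The logarithm was taken after dividing by each array's 75th percentile (1735 to 2165 intensity units), and dim signals were set to -6.95. Of 39429 probes 27367 were kept, each detected over background by both replicates of 1 or more irradiated groups, and 67.1% to 71.5% of probes were well above background per array. The brightest probe stood for a gene, and names came from RefSeq accessions (28330 probes), symbols (2378) or the files (8721).

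Group means of all 8 arrays were fitted with limma 3.58.1 in R 4.3.3 (4 residual degrees of freedom). P-values of 21602 genes were adjusted by Benjamini-Hochberg. The number of arrays limits the precision. Named genes were the 12 per direction with the smallest p among shared genes at least 1.5-fold apart, up to 4 shared members of each of 51 lists (otherwise the 2 of smallest p), and a set of FGF, p53 and crypt genes; others are said to be named after their values were seen. Members and lists were chosen with earlier results of these data known. Replicate numbers match the 2 slides, per the file headers; deviations of same-numbered arrays correlated between -0.517 and 0.541. Alternatives were other scalings, background correction, filters, probe summaries, sample sets, a replicate block and each array left out. The fit was tested on simulated data. Some genes counted in the lists are not reported here by name.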

Additional observations from a re-analysis of the deposited data

Results flagged for a closer look

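Over the 4 protein arrays pooled, 10 genes had 1 array whose gap to the next, divided by the whole range, passed Dixon's critical value, which chance does for about 1 in 20 of the 163 genes examined. On the first FGF1/CPP-C array these were Saa3 at 0.682, Eif2s3x at 0.953, Eif2s3y at 1.26, Nqo1 at 0.17 and the pancreatic amylase Amy2a5 at 0.756. On the second FGF1/CPP-C array it was Adgre1 at -1.262. On the first FGF1 array they were Orm2 at -6.382, the chemokine Ccl8 at -2.291 and Fgf1 at 0.038. On the second FGF1 array it was Tie1, an endothelial receptor, at -2.393. Every other protein array of Amy2a5 was at the floor of -6.95, and no protein array measured Orm2 well above background. The gaps of Amy2a5 and Orm2 therefore depend on the limit of detection.

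The effects of the 2 proteins against 8 Gy saline differed for Tff2 and Gkn3. For Tff2 the fitted difference between FGF1/CPP-C and FGF1 was -14.88 (limma adjusted p = 0.0002), a size set by the floor and by saturation, and the measured bound was at least 29100-fold lower. For Gkn3 it was -9.426 (limma adjusted p = 0.0039), with 1 of 2 FGF1 arrays saturated. Both were lower on 2 of 2 FGF1/CPP-C arrays than on either FGF1 array. Both genes were lowest on the FGF1/CPP-C arrays, where the antrum gene list was also lowest. They stayed high on FGF1 and 8 Gy saline arrays whose antrum medians differed widely. How much stomach or duodenal tissue each sample held was not tested.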

How the results depend on the processing

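The count of genes with a limma adjusted p under 0.05 between both proteins and 8 Gy saline was 1. It was 2 with median scaling, the mean of a gene's probes, the 6 irradiated arrays as 2 or as 3 groups and a floor 1 unit higher, and 0 with the authors' processed values, no filter, a filter on all 6 irradiated arrays and without the 3 arrays high in antrum genes. Leaving out each array gave 0 to 2. Between the proteins it was 2, and became 14 with median scaling, 14 with quantile normalisation, 7 with normexp, 0 with the processed values, 9 with no filter, 1 with the stricter filter, 10 with the mean of probes, 8 with trended robust moderation, 4 with the higher floor and 0 without the antrum arrays, and 2 to 5 with each array left out. The 1251 genes above saline became 775 with normexp, 268 with the processed values and 4374 without the antrum arrays, and 1251 to 8777 with each array left out. The 745 below became 1233 with quantile normalisation, 1253 with normexp, 1119 with the processed values and 5445 without the antrum arrays, and 745 to 4651 with each array left out. With the slide as replicate block the 2 counts from the fit were 1 and 2, as without it. The processed values match the scanner intensities at a median ratio of 1, but were used without a floor and with missing values left out. Fewer arrays to clear give larger counts by construction, and the cause of the other shifts was not tested. Tff2 had a limma adjusted p of 0.161 with no filter, 0.896 with the 6 arrays as 2 groups and 0.937 without the antrum arrays, and of 0.116, 0.0587 and 0.0558 without the first 8 Gy saline, the second 8 Gy saline or the first FGF1 array. Adipoq passed with the 6 arrays as 2 groups (limma adjusted p = 0.0407). The Trim71 log2 difference was 0.0937 with no filter and the Pdia6 log2 difference was 0.745 with the mean of its probes, both opposite in sign to the reported fit.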
